A study of Homo sapiens with 10 samples.

Results

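Promoter H3K4me3 peaks without H3K27Ac are places near the start of a protein-coding gene where the promoter mark H3K4me3 was called and the acetylation mark H3K27Ac was not. They were chosen by measured values: the peak had to be narrower than 5000 bp, to share no base with an H3K27Ac peak, and to have a coding start site of the GENCODE annotation within 1000 bp of its bounds on chromosomes 1 to 22. The rule found 1351 peaks among the 18019 of the H3K4me3 list, or among the 11356 that met the width and start site conditions. The other 10005 of these shared a base with an H3K27Ac peak and serve below as the acetylated promoter peaks.

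The cells were MDAMB231, an established human breast cancer line that is triple negative and mesenchymal-like, grown in DMEM with serum and given no other treatment. Chromatin immunoprecipitation with antibodies against H3K4me1, H3K4me3 and H3K27Ac was sequenced in 2 samples for each mark with 1 input sample, and FAIRE, which recovers DNA not crosslinked to protein, was sequenced in 2 samples with 1 input sample of its own. Each assay has 1 list of peaks from its combined samples, so no error between replicates was computed, the depth is not carried by the lists, and the 95% Wilson intervals below cover counting error over loci only. The absence of a peak means that none was called, not that the mark was absent.

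H3K4me3 is laid down around start sites, above all at CpG islands, and is found both at transcribed genes and at many silent developmental genes. H3K27Ac is added by acetyltransferases such as p300 and CBP at active promoters and enhancers, and the same lysine can instead be methylated by the Polycomb complex PRC2, which was not measured here. FAIRE marks nucleosome-depleted DNA, and H3K4me1 typically flanks promoters and covers enhancers.

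The sequences just before the start site are shown for a few promoters of the group. They do not stand for its range. The 100 bases before the Ensembl canonical start site are given for 5 peaks without H3K27Ac, in GRCh37, 5′ to 3′ on the strand of the gene, with every CpG in capitals. None of these bases lies in an annotated exon. ONECUT2 had an H3K4me3 score above 3100, from where scores could not be ranked, CLDN3, KDR and TGFBI are cell type markers, and TNFSF15 had the highest H3K4me1 score; the genes were chosen after their values were seen.
ONECUT2 (chr18:55102506-55102605, plus strand): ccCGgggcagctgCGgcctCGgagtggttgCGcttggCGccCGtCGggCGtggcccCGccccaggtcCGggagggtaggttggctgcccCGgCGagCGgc
CLDN3 (chr7:73184601-73184700, minus strand): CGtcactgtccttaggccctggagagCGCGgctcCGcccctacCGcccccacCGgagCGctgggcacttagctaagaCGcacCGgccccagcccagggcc
KDR (chr4:55991763-55991862, minus strand): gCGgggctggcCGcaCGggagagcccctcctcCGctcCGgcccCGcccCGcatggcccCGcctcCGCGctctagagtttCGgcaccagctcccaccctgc
TGFBI (chr5:135364577-135364676, plus strand): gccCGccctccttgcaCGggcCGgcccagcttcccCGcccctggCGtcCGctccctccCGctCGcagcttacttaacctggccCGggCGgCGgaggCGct
TNFSF15 (chr9:117568320-117568419, minus strand): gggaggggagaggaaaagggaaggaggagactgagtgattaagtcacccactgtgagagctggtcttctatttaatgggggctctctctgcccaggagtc
These stretches held 13 CpG for ONECUT2, 9 for CLDN3, 11 for KDR, 12 for TGFBI and 0 for TNFSF15. Their GC content ran from 54% for TNFSF15 to 80% for ONECUT2.

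The values that chose the peaks are given as a description. The width of the peaks without H3K27Ac had a median of 1904 bp, with quartiles of 1575 and 2293 bp, and ran from 468 to 4990 bp. Acetylated promoter peaks had a median of 2905 bp. The MACS score, minus 10 times the log10 of the p-value, had a median of 1045 without H3K27Ac, and 234 of these peaks (17.3%) reached 3100, from where scores could not be ranked. Of the acetylated promoter peaks, 84.5% reached it. The lowest score of the group was 50.11, near the lowest of the whole H3K4me3 list at 50.01. The peaks thus spanned the scale of the mark, from the threshold of the caller to its ceiling.

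Each edge of the rule has close neighbours. The widest members were at KIF26B, a kinesin gene (4990 bp), and at SLIT2, which encodes an axon guidance ligand (4716 bp). Just past the width limit were the unacetylated peaks of AMOTL2 (5059 bp) and SLC2A1, the glucose transporter (5079 bp). The members nearest to acetylation were at PTGS2, the inducible cyclooxygenase, with an H3K27Ac peak 35 bp away, and at GGT7, at 97 bp. Peaks at BAIAP3 and ATP8B2 were left out for 40 and 130 bases shared with an H3K27Ac peak. On the start site condition, peaks at CHRM4 and MMEL1 were kept at 996 and 956 bp, and peaks at 1003 and 1019 bp on chromosome 7 were not.

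Most of the group lay far from acetylation. The nearest H3K27Ac peak was at a median of 27321 bp, with quartiles of 11124 and 72796 bp. Only 37 of the 1351 peaks (2.74%) had one within 1000 bp, and 311 (23.02%) had one within 10000 bp. At 241 peaks (17.8%) the distance was over 100000 bp, and at 11 it was over 1000000 bp. The farthest were FAM27A at 3475047 bp and AL354718.1 at 3189219 bp, both in repeated sequence of chromosome 9, where 41.2% and 34.7% of windows of 50 bases occurred once in the genome. Next were CMPK2 (1810825 bp) and RSAD2 (1799305 bp), neighbouring genes induced by interferon, then CDH12, a cadherin gene (1698901 bp), and GRM7, a glutamate receptor gene (1438791 bp). The peak of CMPK2 was CpG rich, with a score of 841.1, whereas that of RSAD2 had a score of 96.92 and a CpG observed to expected ratio of 0.1654.

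**Figure D1:**
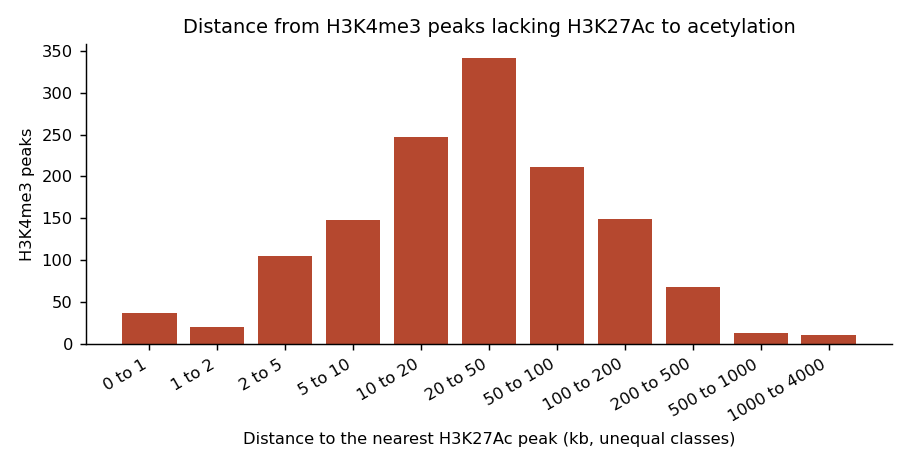
Number of promoter H3K4me3 peaks without H3K27Ac (vertical axis) in classes of distance to the nearest H3K27Ac peak (horizontal axis, kb, classes of unequal width). The class of 20 to 50 kb holds 341 peaks, the most of any class, and 37 peaks lie within 1 kb.

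FAIRE peaks were found at few of these promoters. A FAIRE peak shared a base with 148 of the 1351 peaks (11.0%, 9.40% to 12.7%) and with 50.7% (49.7% to 51.7%) of the acetylated promoter peaks. Over all 11356 promoter H3K4me3 peaks under 5000 bp the share was 46%. A window of equal size for every promoter, 500 bp on each side of the start site, gave 9.33% without H3K27Ac and 45.0% with it. Since wide H3K4me3 peaks offer more sequence to overlap, the shares were also taken within classes of width. From 2000 to under 2500 bp, 40 of 363 peaks (11.0%) without H3K27Ac and 41.4% of acetylated peaks had a FAIRE peak. From 3000 to under 5000 bp these shares were 24.2% of 99 peaks and 57.9%. With the acetylated peaks weighted to the widths of the unacetylated ones, their share was 44.6%, and weighted to the classes of score it was 53.5%.

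**Figure D2:**
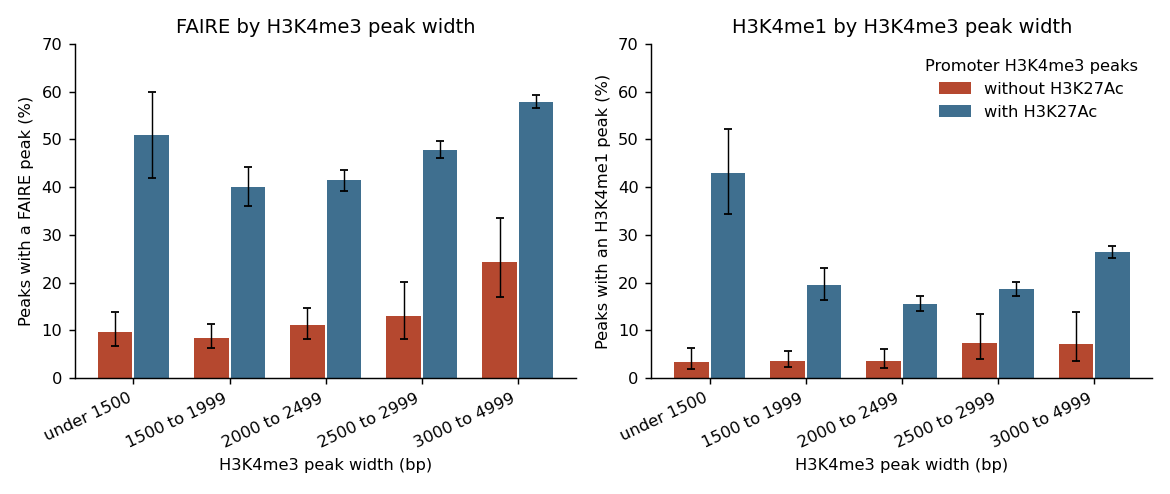
Share of promoter H3K4me3 peaks with a FAIRE peak (left) or an H3K4me1 peak (right), in %, by class of H3K4me3 peak width in bp, for peaks without and with H3K27Ac. Bars are shares and lines are 95% Wilson intervals over loci. In every class the share was lower without H3K27Ac, for example 9.70% against 50.9% for FAIRE under 1500 bp.

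The open promoters of the group were led by genes of varied function. HLA-DMA, whose product loads peptides on class II molecules, had the tallest FAIRE peak, with a height of 145.6, beside an H3K4me3 score of only 85.5. GCDH, a lysine breakdown enzyme, followed at 140.5, and HYKK, hydroxylysine kinase, at 136.3. RPS6KB1, the S6 kinase, reached 131.8, JUP, the junction protein plakoglobin, 131.4, and TMEM102 130.2. GCDH, HYKK and JUP had scores of 3100, so a tall FAIRE peak occurred both at weak and at strong H3K4me3. Over all 148 the median height was 59.4, with quartiles of 47.5 and 75.4, and at acetylated promoters with a FAIRE peak it was 66.8. The quartiles at acetylated promoters were 51.6 and 90.7, so the heights overlapped widely.

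Around the start site, FAIRE peaks of the group kept the usual place. In bins of 250 bp, the share of start sites with a FAIRE peak was highest, at 8.59%, in the bin centred 375 bp upstream, and fell to 1.92% in the bin centred 625 bp downstream. For acetylated promoters the highest bin was the same, at 41.7%. The H3K4me3 peaks without H3K27Ac reached a median of 855 bp upstream and 1046 bp downstream of the start, and acetylated peaks 1266 and 1611 bp. H3K4me1 peaks covered 3.92% of starts in the group and 9.77% of acetylated starts in the bin centred 125 bp upstream, and 3.55% and 17.7% in the bin centred 1375 bp downstream, the highest for acetylated starts.

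**Figure D3:**
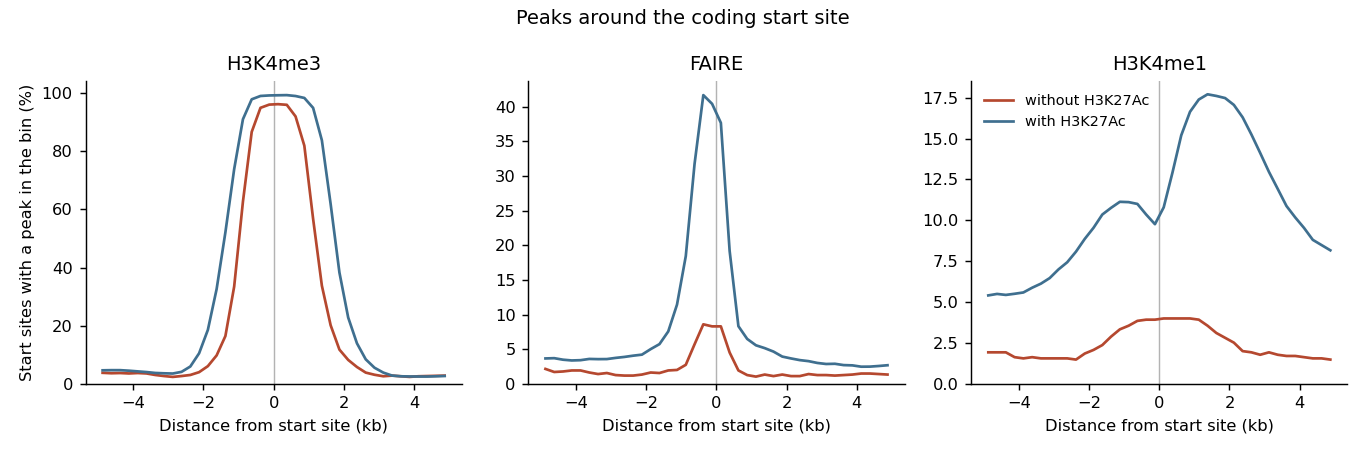
Share of coding start sites with an H3K4me3, FAIRE or H3K4me1 peak in each bin of 250 bp (vertical axes, %, with scales of their own) against distance from the start site in kb, downstream to the right. Lines are promoters without and with H3K27Ac, and FAIRE rises near the start in both, to 8.59% and 41.7%.

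H3K4me1 was rarer still. An H3K4me1 peak shared a base with 56 of the 1351 peaks (4.15%, 3.21% to 5.34%), with 21.9% (21.1% to 22.7%) of acetylated promoter peaks and with 19.8% of all promoter H3K4me3 peaks under 5000 bp. When only H3K4me1 peaks with scores of at least 100 were counted, the shares were 1.406% without H3K27Ac and 9.555% with it. The share was lower in each width class, at 3.36% against 43.0% under 1500 bp and 7.07% against 26.4% from 3000 to under 5000 bp. The highest H3K4me1 score was at TNFSF15, a cytokine gene of the TNF family (276.7), and CFAP58, a cilium gene, had 193.3. NPB, which encodes neuropeptide B, had 183.9, CPEB3, an mRNA-binding protein gene, 171.3, and DYNC1H1, the dynein heavy chain gene, 169.1. At TNFSF15, CFAP58 and CPEB3 a FAIRE peak was present as well, with heights of 59.24, 76.75 and 52.56. In all, 12 peaks had both FAIRE and H3K4me1, and 1159 (85.8%) had neither, compared with 41.3% of acetylated peaks.

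Several peaks with scores above 3100 are named here. ONECUT2, a homeodomain factor gene, had a score of 3228.3 and a width of 3010 bp, with the nearest H3K27Ac peak 149277 bp away. ENSG00000285304, which shares its promoter with SH3BP1, had 3205.1, TMEM108 3204.7 and STON1, an endocytic adaptor gene, 3201.5. CRIP2, a LIM domain gene, had 3180.5, EPHA7, an ephrin receptor gene, 3180.1, and SLC27A3, of the fatty acid transporter family, 3178.4. All of these exceed 3100 and are listed only to name the peaks, not to rank them. Of these genes, EPHA7 had a FAIRE peak, with a height of 42.3, and ENSG00000285304 had an H3K4me1 peak. The nearest H3K27Ac peak was 3506 bp from the peak of CRIP2 and 272740 bp from that of EPHA7.

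Most promoters of the group were CpG rich. Within 500 bp of the start site, the median GC content was 65.2% without H3K27Ac and 64.04% at acetylated promoters. The median CpG observed to expected ratio was 0.734 and 0.787. Starts with a ratio of at least 0.6 and GC of at least 50% made up 1026 of the 1351 peaks (75.9%, 73.6% to 78.1%), 85.9% of acetylated peaks and 84.7% of both together. With the acetylated peaks weighted to the widths of the unacetylated ones this order turned, since 61.6% of them were then CpG rich, and weighted to the classes of score 47.6% were. Under 1500 bp the shares were 54.9% without H3K27Ac and 25.4% with it, and from 3000 to under 5000 bp 84.8% and 91.4%. Over the whole H3K4me3 peak in place of the fixed window the order of the ratios turned, to 0.646 and 0.631. Within the group, the 1026 CpG-rich peaks had a median score of 1389 and the other 325 a median of 426. FAIRE peaks were found at 9.55% of the CpG-rich peaks and at 15.4% of the others, and an H3K4me1 peak at 3.22% and 7.08%. The CpG-poor side included HLA-DMA, with a ratio of 0.1922, TNFSF15 with 0.132 and SCN2A, a sodium channel gene, with 0.17.

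**Figure D4:**
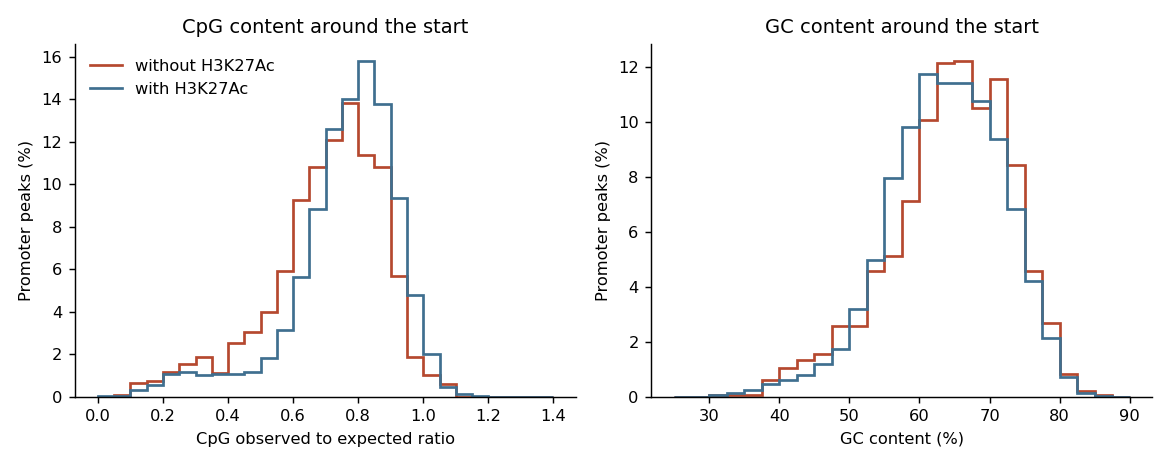
Distribution of the CpG observed to expected ratio (left) and of GC content in % (right) within 500 bp of the start site, as the share of promoter H3K4me3 peaks in each class, for peaks without and with H3K27Ac. The medians of the ratio are 0.734 and 0.787, and the curves overlap over most of their range.

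Exact letter motifs were counted on both strands within 250 bp of the start site. CCGGAA, the core that ETS factors read, was present at 278 of the 1351 promoters (20.6%, 18.5% to 22.8%), at 37.2% (36.2% to 38.1%) of acetylated promoters and at 35.2% of all promoters with an H3K4me3 peak under 5000 bp. GCATGCGC, within the NRF1 site, was at 3.26%, 5.77% and 5.47%, CACGTG, the E-box, at 8.29%, 12.2% and 11.7%, and TGACGTCA, the cyclic AMP element, at 1.406%, 2.999% and 2.809%. GGGCGG, the GC box, was at 83.5%, 83.9% and 83.8%, CCAAT at 34.27%, 38.01% and 37.57%, TGANTCA, the AP-1 core, at 3.997%, 5.727% and 5.521%, and TATAAA at 5.996%, 5.008% and 5.125%. The intervals overlapped for GGGCGG and TATAAA. Among CpG-rich starts alone, CCGGAA was at 22.3% without and 38.8% with H3K27Ac, the order turned for GGGCGG, at 91.4% and 88.9%, and the intervals overlapped for TGACGTCA as well. No motif of these contains another, and a match is a description of the letters, not of a bound factor.

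Promoters of the group were mostly single. Coding starts on both strands were near 50 of the 1351 peaks (3.70%, 2.82% to 4.85%), 13.1% of acetylated peaks and 11.9% of both together. A single coding gene was near 94.3% of the peaks and near 84.8% of acetylated peaks. An Ensembl canonical start was within reach of 1139 (84.3%), and of 92.6% of acetylated peaks. At 176 of the peaks (13.03%) the nearest coding gene had an acetylated H3K4me3 peak at another of its starts. This held for 97 of the 212 peaks (45.8%) without a canonical start and for 79 of the 1139 (6.94%) with one.

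By gene, 1385 of 18892 coding genes (7.33%) had a peak of the group within 1000 bp of a start, or 10.9% of the 12713 genes with any H3K4me3 peak. For 1196 of them it was the only kind of H3K4me3 peak, and 189 had another as well. The gene lists below were counted beside these shares, without a test.

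Of 41 epithelial and luminal genes, 14 (34.1%, 21.6% to 49.4%) had a peak of the group, and 10 had no H3K4me3 peak. This was the highest share over all genes of a list. Among genes with any H3K4me3 peak it was 45.2%, below protocadherins, potassium channels and other lists given further on. CDS1, a lipid enzyme gene, MAL2, of apical transport, and MARVELD2, which encodes tricellulin, had scores of 3100, and MAL2 had both a FAIRE peak (89.8) and an H3K4me1 peak (84.61). The splicing factor gene ESRP1 had a wide peak of 4506 bp, 74540 bp from H3K27Ac. OVOL2, SPINT1, ST14, TJP3, MARVELD3 and SPINT2 were also in the group, SPINT2 with an acetylated peak at another start. Of 41 mesenchymal genes, 4 (9.76%, 3.86% to 22.5%) had one and 9 had no H3K4me3 peak. This interval holds the 7.33% of all genes, and its upper end slightly overlaps the interval of the epithelial and luminal list. The 4 made up 12.5% of the 32 genes with any H3K4me3 peak and were COL6A2, a collagen gene, SNAI1, a repressor of epithelial genes, TGFBI and ZEB2. ZEB2 lay only 232 bp from an H3K27Ac peak and kept an acetylated peak at another start.

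The mesenchymal and luminal markers used to check the identity of the line are genes of these lists and add no new evidence on them. Of 13 mesenchymal markers on these chromosomes, 11 had acetylated promoters (among them VIM, CD44, ZEB1, AXL, CAV1, EGFR, MET, PLAUR and FOSL1), TGFBI was in the group, and SPARC had no H3K4me3 peak. Of 16 luminal and epithelial markers, 8 were acetylated (ERBB2, GATA3, EPCAM, KRT8, KRT18, KRT19, CLDN4 and CLDN7), 5 were in the group (ESR1, PGR, FOXA1, ESRP1 and CLDN3), and CDH1, GRHL2 and ELF3 had no H3K4me3 peak. Among markers of other cells, CD14 and KDR were in the group, GFAP was acetylated, and PTPRC, CD3E, CDH5 and NEFL had no H3K4me3 peak.

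The luminal markers of the group differed among themselves. FOXA1, a pioneer factor, had a score of 2735.3, a FAIRE peak of height 51.5 and no H3K27Ac within 394566 bp. ESR1, the oestrogen receptor, had a score of 1258.4 and a CpG ratio of 0.5259. PGR, the progesterone receptor, had a wide peak of 3510 bp but a score of 399.5. CLDN3, a tight junction claudin, had a score of 2217.9. Of these 4, a FAIRE peak was at FOXA1 alone and an H3K4me1 peak at none.

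Genes of developmental ligand families and of channels also had high shares. Among genes of the WNT, FGF, BMP, GDF, inhibin and hedgehog families, 19 of 67 (28.4%, 18.97% to 40.1%) had a peak of the group. These were 48.7% of the 39 with any H3K4me3 peak, and BMP3, FGF20 and WNT2B had scores of 3100. Among potassium channel genes the count was 25 of 92 (27.2%, 19.1% to 37.04%), among them KCNH3, KCNK15 and KCNK6, and these made up 65.8% of the channel genes with any H3K4me3 peak. Other channels and transmitter receptors had 20 of 135 (14.8%), or 48.8% of the 41 with any H3K4me3 peak, among them the calcium channel genes CACNA1G and CACNB3 and the glutamate receptor gene GRM8.

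Among transcription factors, homeobox genes had 26 of 187 (13.9%, 9.67% to 19.6%), or 34.2% of the 76 with any H3K4me3 peak, and 111 had none. ONECUT2 was among them, as were LHX9 and NKX2-1, with scores of 3100 and widths of 3872 and 3863 bp. NKX2-1 also had an H3K4me1 peak (144.5). SOX, FOX, GATA and TBX factors had 8 of 87 (9.20%, 4.73% to 17.1%), an interval that holds the 7.33% of all genes. These were 21.1% of the 38 with any H3K4me3 peak, led by FOXA1, FOXO6 and TBX1. Zinc finger ZNF genes, which mostly had acetylated peaks, had 22 of 496 (4.44%, 2.95% to 6.62%), or 5.06% of the 435 with any H3K4me3 peak. Of these, ZNF140, ZNF84 and ZNF26 had scores of 3100 and each had a FAIRE peak, of height 111.4, 92.53 and 64.73, and none of the 50-base windows of these peaks occurred once in the GRCh37 assembly. On the chromosomes alone, without the unplaced scaffolds, 95.98%, 95% and 100% of their windows occurred once.

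Genes of constant cell functions had few or no peaks of the group, beside 7.33% of all genes. No gene was in it among 82 cytosolic ribosomal proteins, 34 aminoacyl-tRNA synthetases, 116 DNA replication and repair genes and 46 Polycomb and trithorax genes, for which the upper Wilson limits are 4.48%, 10.2%, 3.21% and 7.71%. The limits for the synthetases and for Polycomb and trithorax genes lie above the share of all genes, so these counts do not show a lower one. MRPS21 was the 1 of 78 mitochondrial ribosomal proteins, and COX6B2 the 1 of 81 respiratory chain subunits. Of 78 cilium genes 2 were in it (2.56%, 0.706% to 8.88%), among them IFT172, and this interval also holds the share of all genes. OR52N2 was the 1 of 389 olfactory receptor genes, of which 388 had no H3K4me3 peak at all. Genes listed as germline by their symbol alone were near the share of all genes, with 6 of 100 (6%), among them SPATA18, SPATA6 and SPATA13. The 6 were 19.4% of the 31 with any H3K4me3 peak.

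**Figure D5:**
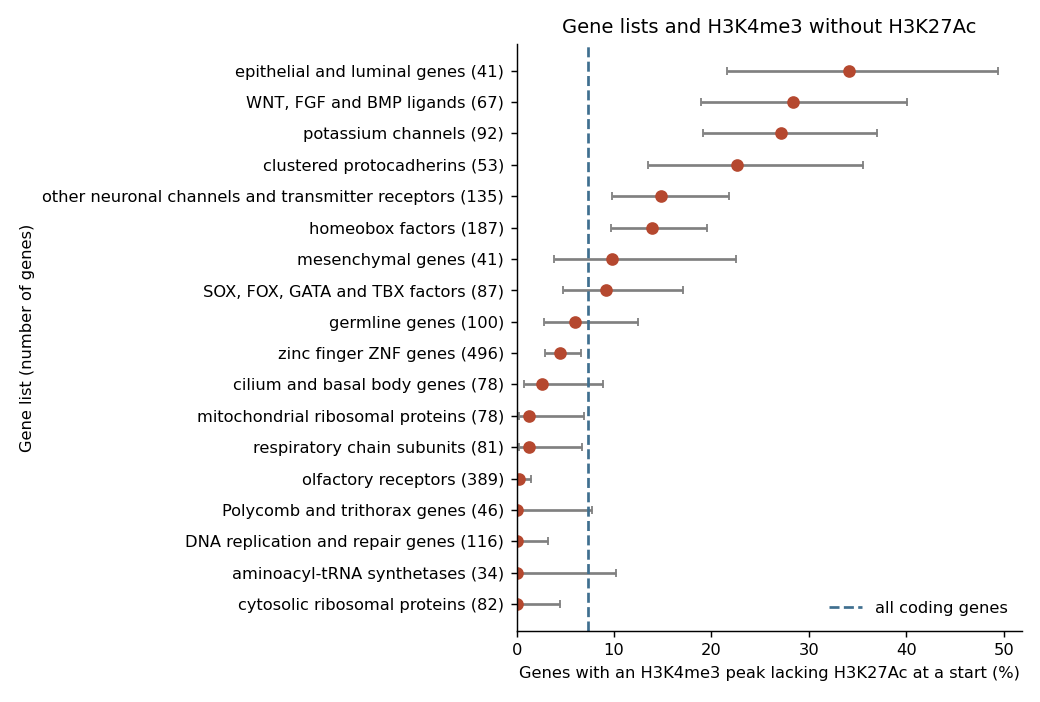
Share of genes in each list with an H3K4me3 peak lacking H3K27Ac within 1 kb of a start (horizontal axis, %), with the number of genes in brackets. Points are shares, lines are 95% Wilson intervals, and the dashed line is the 7.33% of all coding genes.

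Clustered protocadherins, which give neurons their surface identity, had 12 of 53 genes (22.6%, 13.5% to 35.5%), and 12 of the 14 with any H3K4me3 peak. Their highest scores were 1676.6 at PCDHAC1, 804.4 at PCDHB11 and 590.4 at PCDHB2. They formed the run of the group with the most peaks, 11 neighbouring promoter peaks from PCDHA13 to PCDHB13 on chromosome 5. No acetylated promoter peak lay between them. FAIRE peaks were present at 2 of these 11.

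Other runs held fewer peaks. On chromosome 4, the homeobox gene GSX2 and the receptor tyrosine kinase genes PDGFRA, KIT and KDR formed a run of 4. KIT and KDR had scores of 3100, PDGFRA had 314.8, and KIT alone of the 4 had an H3K4me1 peak (100.3). Runs of 7 were at ANKRD20A3 on chromosome 9 and at POLR2J on chromosome 7, and a run of 5 was at PHGDH on chromosome 1. They lay mostly in repeated sequence, with a median of 27.7%, 21.7% and 24.6% of windows found once in the genome. A run follows the order of promoter peaks and not their distance. The run on chromosome 9 reached from base 43133075 to 70490877, and that on chromosome 1 from 120254132 to 143914416. A run of 4 from CHFR to ZNF140 on chromosome 12 had a median of 0% with the unplaced scaffolds and of 95.5% without them. The other 3 medians were the same without scaffolds. Whether the reads were also aligned to the unplaced scaffolds is not given in the sources used here. A neighbouring promoter peak without H3K27Ac was next to 363 of the 1351 peaks (26.9%, 24.6% to 29.3%) and next to 20.5% of the acetylated promoter peaks.

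Repeated sequence was more frequent in the group. Under 50% of windows of 50 bases occurred once in the assembly at 83 of the 1351 peaks (6.14%, 4.98% to 7.55%) and at 34 acetylated peaks (0.340%). Without the scaffolds these counts were 77 (5.70%) and 34. FAIRE peaks were at 10 of the 83 and at 5 of the 77, and H3K4me1 peaks at 0 of them. The part of repeated sequence in the absence of H3K27Ac was not tested, and among the 1249 peaks with at least 75% of such windows the FAIRE share was 10.7%, or 11.07% of 1256 without scaffolds.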

How the data were processed

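Reads of MDAMB231 were aligned to GRCh37 (hg19) by the authors with BWA, duplicated and poorly mapping reads were dropped, and histone and FAIRE peaks were called against input. Each peak list pools the 2 samples of its assay, which the authors had first examined singly. The step at which they were pooled is not given in the sources used here. The submitters' processing notes also name TopHat and HOMER. The deposited score of a histone peak, computed by the authors with MACS, is a −log10 p-value multiplied by 10. The deposited value of a FAIRE peak, from FindPeaks, is the height of its signal or coverage. Samples were grouped by assay from the titles in the labels.

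Peaks overlapped if they shared 1 base or more, counted by python 3.11.15, numpy 2.4.6, pandas 2.3.3 and pysam 0.24.0, and the counting was tested on simulated data against bedtools 2.31.1. Intervals used scipy 1.17.1 and figures matplotlib 3.10.9. Start sites were those of coding transcripts in GENCODE on GRCh37, and a peak was named by the coding gene whose start was nearest its centre. Uniqueness was read in windows of 50 bases, every 20 bases, over GRCh37 with and without its unplaced scaffolds. The peaks and gene lists were chosen with earlier results of these data known.

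Named genes were taken, among the peaks of the group, from the 8 with the highest H3K4me3 score (the lists hold no fold enrichment), the 6 with the tallest FAIRE peak, the 6 with the highest H3K4me1 score, the 6 farthest from H3K27Ac, the 3 with the highest score in each gene list, and the 2 on each side of each threshold. Cell type markers were named as well, but not MSN and SYP, on chromosome X, and PECAM1, not among the coding genes used. SCN2A and other genes named beside a count or a run were chosen after their values were seen.

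No test was run, since each assay has 1 list. The alternatives tried were peaks with scores of at least 100, a gap of 1000 bp to H3K27Ac, start sites inside the peak, gene record starts, no width limit, a fixed window at the start, taller FAIRE peaks, width classes and other sequence windows. Uniquely mapping peaks, with and without scaffolds, and canonical starts were added after seeing the data.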

Additional observations from a re-analysis of the deposited data

Results flagged for a closer look

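Chromosome X was outside the rule and its peaks were set aside because they were otherwise not analysed, but it carries the same kind of peak. There, 51 of 411 promoter H3K4me3 peaks under 5000 bp (12.4%, 9.57% to 15.95%) shared no base with an H3K27Ac peak, near the 11.9% of chromosomes 1 to 22. FAIRE peaks were found at 11 of these (21.6%, 12.5% to 34.6%), beside 11.0% of the 1351 of chromosomes 1 to 22, and at 63.6% of the 360 acetylated ones, and an H3K4me1 peak at 0 of the 51. They were listed because no rule or alternative used them, not because of their size.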

How the results depend on the processing

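No paired analysis was possible because the deposited files hold the replicates of an assay merged in 1 list, and for the same reason no replicate could be left out in turn. The number of peaks stayed within 1.5 times of 1351 under all 9 alternatives, from 1088 with gene record starts to 1669 when H3K27Ac peaks had to score at least 100, and all 19 gene counts did so with gene record starts. The FAIRE share moved outside its interval to 9.33% within 500 bp of the start, 5.03% with the taller FAIRE peaks, and 8.43%, 13.01% and 24.2% in the width classes from 1500, 2500 and 3000 bp. The H3K4me1 share moved to 1.406% when H3K4me1 peaks had to score at least 100 and to 7.32% and 7.07% in the width classes from 2500 and 3000 bp. Both shares were below those of acetylated peaks under all 15 alternatives each. The median CpG ratio moved to 0.785 within 250 bp and 0.646 over the whole peak, and the median GC content to 69.5% and 60.5%. The causes were not tested. Uniquely mapping peaks, with or without scaffolds, and canonical starts, chosen after seeing the data, left both shares inside their intervals. The lists carry no depth, so a weak H3K27Ac signal under the threshold of the caller cannot be told apart from none.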
